A study of Mus musculus with 24 samples.

Results

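The proteasome genes described here were taken as all probes on the expression arrays whose gene symbol begins with Psma, Psmb, Psmc, Psmd or Psme, without Psmb8, Psmb9 and Psmb10, which encode the catalytic subunits of the immunoproteasome. This rule gave 56 probes for 38 of the 18120 genes on the array table. Of these, 49 probes for 36 genes were detected on at least 1 of the 24 arrays, at a detection p-value of 0.02 or below, and were analysed. Psma1 and Psma6 were not detected on any array. Psmc3ip was picked up by its symbol and encodes a recombination cofactor that is not a proteasome subunit, so that 35 proteasome genes remained. Psma8, Psmb11, Psmd3 and Psmd6 had no probe under these symbols and were not analysed here. For the 11 genes with several detected probes, the brightest probe stood for the gene.

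The arrays carried RNA from CD4+ T cells of WT mice and of BAF180 cKO mice (KO), whose cells lack BAF180, the product of Pbrm1 and a subunit of the PBAF form of the SWI/SNF chromatin remodeling complex. Both kinds of mice were 4 to 6 weeks old and labelled Balb/c, while the methods describe the BAF180 line as of another, mixed background before its cross to the Cre mice. In the KO mice Cre recombinase driven by CD4 regulatory sequences deletes a loxP-flanked part of Pbrm1 late in thymocyte development, so the deletion preceded purification and culture of the cells. Resting Naïve cells were CD4+CD62L+ cells from spleen and lymph nodes, purified to 95%. Stimulated Naïve cells were the same cells after 24 hours on plates coated with anti-CD3 (1 µg/ml) and anti-CD28 (2 µg/ml). Resting Th2 cells came from Naïve cells cultured on the same antibodies with IL-4 (10 ng/ml) and anti-IFN-γ (10 µg/ml), with IL-2 (100 U/ml) added after 24 hours and used for expansion. Stimulated Th2 cells were resting Th2 cells treated with PMA (50 ng/ml) and ionomycin (500 ng/ml) for 1.5 hours. Each of the 8 groups, 4 cell states in 2 genotypes, held 3 arrays marked A, B and C.

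The 26S proteasome degrades proteins that carry ubiquitin chains. Its 20S core is a barrel of outer rings of alpha subunits (Psma genes), which gate the entry, and inner rings of beta subunits (Psmb genes), of which Psmb5, Psmb6 and Psmb7 encode the chymotrypsin-like, caspase-like and trypsin-like active sites. The 19S cap holds a ring of ATPases (Psmc genes) that unfolds substrates, and non-ATPase subunits (Psmd genes) such as the ubiquitin receptor Psmd4 and the deubiquitinase Psmd14. Psmd5, Psmd9 and Psmd10 encode chaperones that help to build the cap and leave it afterwards. Psme1 and Psme2 encode the PA28 activator induced by interferon-γ, Psme3 its nuclear relative PA28γ and Psme4 the activator PA200. In lymphocytes, and in other cells after interferon-γ, immunoproteasome subunits take the place of the constitutive active sites.

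Probe sequences show what part of a transcript each value stands for, so the probes behind the largest and the least certain differences are given here. They are 50 bases long and, per the file headers, start at base 429 (Psmb5), base 1013 (Psmd11), base 583 (the dimmer Psme1 probe) and base 482 (Psme2b) of their transcripts. Psme2b is a close copy of Psme2 in the mouse genome, and transcripts of such copies may share a probe. Capitals mark the longest run that the Psme1 and Psme2b probes have in common, which was 14 bases. The probes of Psme2 and Psme2b lie in different stretches and share a run of at most 6 bases. Probes were not compared with transcripts of the other gene, so whether the Psme2b probe also reads Psme2 is not known.
Psmb5: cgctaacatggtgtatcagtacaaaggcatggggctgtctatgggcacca
Psmd11: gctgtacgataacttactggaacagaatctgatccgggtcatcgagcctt
Psme1: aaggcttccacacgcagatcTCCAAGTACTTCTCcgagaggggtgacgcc
Psme2b: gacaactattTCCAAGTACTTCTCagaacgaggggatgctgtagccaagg

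Promoters are shown for Psmb5, which had the largest difference between stimulated and resting Naïve cells in WT, and for Psmd11, Psme3 and Psmd12, which had the 3 largest differences between stimulated and resting Th2 cells in WT. Each line holds the 250 bases before the transcription start site, read 5′ to 3′ in the direction of the gene, from RefSeq on GRCm38.p6. Capitals mark the core of the antioxidant response element, TGACNNNGC, which Nfe2l1 and related factors can bind, and the core of ETS sites, CCGGAAG, on either strand.
Psmb5 (chr14:54617996-54618245, minus strand): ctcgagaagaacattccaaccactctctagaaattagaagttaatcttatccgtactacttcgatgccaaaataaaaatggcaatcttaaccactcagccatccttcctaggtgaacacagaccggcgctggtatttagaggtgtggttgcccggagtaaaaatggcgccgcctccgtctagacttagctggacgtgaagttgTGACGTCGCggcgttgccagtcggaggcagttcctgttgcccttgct
Psmd11 (chr11:80428365-80428614, plus strand): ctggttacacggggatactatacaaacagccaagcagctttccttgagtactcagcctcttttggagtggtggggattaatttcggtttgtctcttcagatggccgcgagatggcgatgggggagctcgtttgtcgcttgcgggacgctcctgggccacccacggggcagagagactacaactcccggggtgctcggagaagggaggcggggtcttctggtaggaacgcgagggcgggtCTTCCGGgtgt
Psmd12 (chr11:107479278-107479527, plus strand): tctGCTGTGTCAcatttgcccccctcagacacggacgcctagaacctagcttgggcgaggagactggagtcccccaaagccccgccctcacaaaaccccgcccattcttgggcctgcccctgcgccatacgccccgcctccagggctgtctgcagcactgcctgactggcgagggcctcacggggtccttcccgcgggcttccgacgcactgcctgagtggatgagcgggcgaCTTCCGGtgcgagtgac
Psme3 (chr11:101315963-101316212, plus strand): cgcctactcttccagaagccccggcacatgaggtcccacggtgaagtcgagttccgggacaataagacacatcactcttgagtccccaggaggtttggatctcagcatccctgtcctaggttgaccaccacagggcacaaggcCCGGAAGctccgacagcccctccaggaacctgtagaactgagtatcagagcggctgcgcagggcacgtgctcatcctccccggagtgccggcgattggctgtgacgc

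In these sequences the antioxidant response element core began 47 bases before the start site in Psmb5 and, on the opposite strand, 247 bases before it in Psmd12. The ETS core stood 107 bases before the start site in Psme3, and on the opposite strand 11 bases before it in Psmd11 and 17 bases before it in Psmd12. RefSeq promoters were matched for 30 of the 35 genes. Psmb1, Psmb2, Psmb7, Psmc3 and Psmd7 were not among them. Windows of 300 bases, 250 before and 50 after the start site, were searched on both strands. A gene was counted where any of its windows held the motif. The comparison was with all 27025 genes that had a promoter, not limited to genes detected here. CCGGAAG occurred for 10 of the 30 proteasome genes (33.3%) and for 9.93% of the 27025 genes. The GC box GGGCGG occurred in 19 (63.3%) against 38.2% of all these genes, and TGACNNNGC in 6 (20%) against 14%. CCAAT, the NF-Y box, was found in 10 (33.3%) against 41.1%, and the E box CACGTG in 3 (10%) against 8.09%. These are matches of letters and say nothing of binding.

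Between 8047 and 10689 of 25697 probes were detected per array, and 14246 probes of 10545 genes were analysed. All values below are log2 intensities after background correction and quantile normalization, and a difference of 1 on this scale is a change by a factor of 2, which the background offset compresses in dim probes. A gene was called where the limma test gave an adjusted p below 0.05 over all 14246 probes. By the study's account WT and KO mice were used in pairs, so that arrays of a group stand for separate mice, and the labels tie no letter to a mouse or a pair. As a check of the genotype, the brightest Pbrm1 probe differed between KO and WT by -1.01 in resting Naïve cells (adjusted p = 0.121), -1.63 in stimulated Naïve cells (adjusted p = 0.00746), -1.86 in resting Th2 cells (adjusted p = 0.00101) and -1.42 in stimulated Th2 cells (adjusted p = 0.0141). Where this probe lies relative to the deleted part was not given. T cell markers were detected in every state. Their 4 detected genes summed to 6585 to 8614 in resting and 2690 to 3968 in stimulated Naïve cells, where 3 were called lower in WT. The summed intensity of the 4 Th2 markers was highest in stimulated Th2 cells, at 18710 to 21092. In resting Th2 cells it was 1235 to 2416, which overlapped the 818 to 2682 of stimulated Naïve cells. Between these 2 states in WT, 1 Th2 marker was called higher and 2 were called lower in resting Th2 cells. Markers of myeloid cells stood apart in resting Naïve cells of both genotypes. Their 5 detected genes summed to 1543 to 4764 on these 6 arrays, against 98.9 to 139 in the other 3 states, where Lyz2, Cd14 and Tyrobp were not detected.

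Most proteasome genes were higher in WT Naïve cells after 24 hours of stimulation, and no subunit gene fell. Of the 35 genes, 29 were higher in stimulated than in resting Naïve cells and 6 were not called, beside 23.2% higher and 21.8% lower of all 10545 genes. The median difference was 1.00 over the proteasome genes and -0.01 over all genes. Per array, the median log2 intensity of the 35 genes was 8.25 to 8.65 in resting Naïve cells and 9.54 to 9.74 in stimulated Naïve cells, with no overlap. In BAF180-deficient cells 26 of 35 were higher and none was lower, beside 22% higher and 21.3% lower of all genes, with a median difference of 0.93. The 4 criteria of the study's methods include a size threshold (a Z-ratio beyond 1.5) and were applied here to limma differences and p-values. The study's own Z-score program was not available. So applied, the criteria called 5 genes in WT and 7 in BAF180-deficient cells, and the share of all genes they called is not given here. In bulk RNA a smaller share of cells with a transcript and less transcript per cell cannot be told apart. The resting Naïve arrays held the myeloid markers given above, and B cell markers summed to 351 to 966 in them and to 160 to 248 in stimulated Naïve cells. The part of these other cells in the result was not tested. The 3 detected genes of cycling cells summed to 184 to 307 in resting Naïve cells and to 820 to 1575 in stimulated Naïve cells, and their part in the result was likewise not tested.

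All 12 core genes with a detected probe rose in stimulated WT Naïve cells. The 5 alpha ring genes had a median difference of 1.16 and the 7 beta ring genes of 1.08. Psmb5, which encodes the chymotrypsin-like site, had the largest difference of all subunits. Its log2 intensity was 4.35, 4.86 and 5.44 in the resting and 7.40, 6.75 and 7.43 in the stimulated WT arrays A, B and C. The groups did not overlap, and the difference was 2.31 ± 0.35 (SE, adjusted p = 1.83e-05). Psmb5 was detected on only 1 of the 3 resting WT arrays, so that the resting level is close to background. Psmb7, with the trypsin-like site, measured 7.98, 7.99 and 8.52 in resting and 9.66, 9.63 and 10.11 in stimulated cells. It was well above background throughout and differed by 1.64 ± 0.20 (SE, adjusted p = 8.98e-07). Psmb6, with the caspase-like site, measured 9.03, 9.66 and 8.94 in resting and 10.15, 10.23 and 10.24 in stimulated cells, a difference of 1.00 ± 0.21 (SE, adjusted p = 4.68e-04). The 3 active-site genes thus rose together, each with every stimulated array above every resting array.

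Among the alpha ring genes Psma5 had the largest difference. Its values were 9.71, 10.03 and 10.49 in resting and 11.67, 11.79 and 11.71 in stimulated WT cells, a difference of 1.65 ± 0.17 (SE, adjusted p = 1.00e-07). Psma2 differed least in this ring, by 0.46, though it too was called and its groups did not overlap. The remaining alpha genes Psma3, Psma4 and Psma7 differed by 0.73, 1.33 and 1.16. In the beta ring, Psmb1, Psmb2, Psmb3 and Psmb4, which carry no active site, differed by 0.41, 1.08, 1.19 and 0.84. The resting and stimulated WT arrays overlapped for Psma3 and Psmb1 and for no other core gene. The share of all genes without overlap is not given, so the lack of overlap describes these genes only. In BAF180-deficient cells these were also the core genes that were not called, at 0.51 and -0.0048.

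In the 19S cap, 5 of 6 ATPase genes rose, with a median of 1.20, and 8 of 9 non-ATPase genes, with a median of 1.01. The 5 ATPases that were called, Psmc1 to Psmc5, lay between 0.94 and 1.26. Psmc6, the sixth ATPase, was detected on only 2 of 24 arrays and gave 0.19, so that no change could be read from its probe. The WT values of Psmc6 were 4.24, 4.36 and 4.39 in resting and 4.36, 4.64 and 4.57 in stimulated cells. Psmd11, a scaffold subunit of the lid of the cap, had the largest difference in the cap. Its values were 4.36, 4.38 and 5.02 in resting and 6.05, 6.62 and 6.39 in stimulated WT arrays, a difference of 1.77 ± 0.26 (SE, adjusted p = 1.11e-05). Like Psmb5, it was detected on only 1 of 3 resting WT arrays. Psmd7, a lid subunit that pairs with the deubiquitinase, measured 8.25, 7.88 and 9.02 in resting and 10.03, 9.80 and 10.00 in stimulated cells, a difference of 1.56 ± 0.23 (SE, adjusted p = 1.30e-05). The deubiquitinase gene Psmd14 itself differed by 1.24 ± 0.33 (SE, adjusted p = 0.00484). Psmd1 and Psmd2, the large base subunits to which substrates and shuttle proteins dock, were called, but their probes were not well above background on any resting array. Mean log2 intensity was 5.22 against 4.29 for Psmd1 and 4.96 against 4.40 for Psmd2, which set against the lowest detected signal on the resting arrays made them at least 1.28-fold and at least 1.07-fold higher.

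Psmd4 was the non-ATPase gene of the cap that was not called. This ubiquitin receptor gene measured 11.05, 11.27 and 11.37 in resting and 11.59, 10.82 and 10.85 in stimulated WT cells. The groups overlapped and the difference was -0.14 ± 0.21 (SE, adjusted p = 0.617). When arrays were scaled to a common median instead of quantile-normalized it turned to 0.95, which was not called, against a shift of 0.24 in the median of all genes. Of the 3 chaperone genes of cap assembly Psmd5 rose, by 0.98 ± 0.21 (SE, adjusted p = 7.17e-04). Psmd9, which was not well above background on any resting array, and Psmd10 differed by 0.52 and 0.38 and were not called by their brightest probes. Another Psmd10 probe was called at 0.57 (adjusted p = 0.027), and the third kept probe did not pass.

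The activators split. Psme3, which encodes the nuclear PA28γ, rose by 1.05 ± 0.21 (SE, adjusted p = 4.19e-04), from 8.68, 8.24 and 7.80 in resting to 9.19, 9.58 and 9.10 in stimulated cells. Psme4 (PA200) differed by 0.53 ± 0.17 (SE, adjusted p = 0.0164) and Psme2b by 0.89 ± 0.35 (SE, adjusted p = 0.0428). Psme2b measured 5.57, 6.36 and 6.77 in resting and 6.84, 7.51 and 7.03 in stimulated WT cells, and its call was lost without resting array A or B or without stimulated array B or C, at 0.56 to 0.96. The interferon-inducible PA28 genes did not pass the test. Psme1 measured 10.54, 10.53 and 10.09 in resting and 10.23, 10.87 and 10.75 in stimulated WT arrays, a difference of 0.23 ± 0.18 (SE, adjusted p = 0.321), and Psme2 gave 0.29 ± 0.27 (SE, adjusted p = 0.419). Under scaling to a common median Psme1 gave 1.38 and was called. The 14 bases in capitals in the Psme1 and Psme2b probes belong to the dimmer Psme1 probe, not to the one used. In BAF180-deficient cells Psme3 differed by 1.09 and Psme4 by 0.59, both called, while Psme2b gave 0.15 and was not. Its BAF180-deficient values were 6.22, 6.65 and 6.58 in resting and 5.59, 7.35 and 6.97 in stimulated cells, and without stimulated array A, the low one, the difference was 0.68 and not called. The response of Psme2b differed between genotypes by -0.74, or by -0.22 without that array, and did not pass its own test (all arrays, adjusted p = 1).

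**Figure D1:**
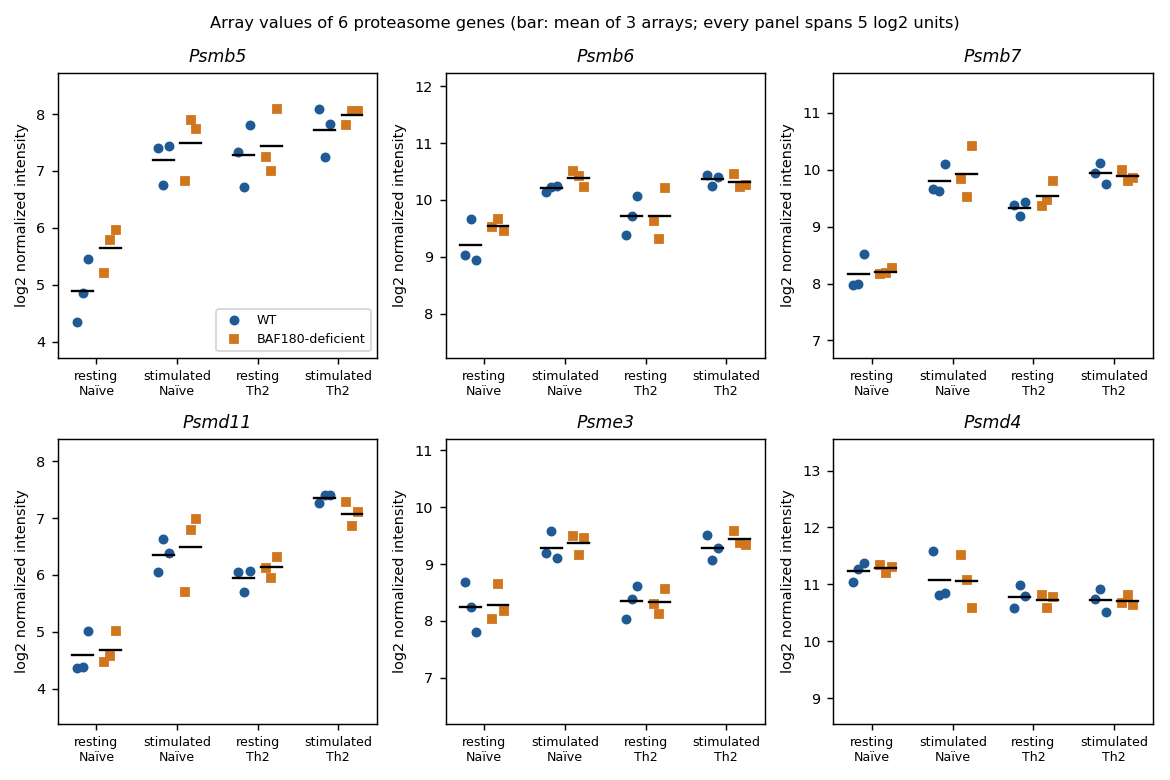
Log2 normalized intensity of the active-site genes Psmb5, Psmb6 and Psmb7, the lid gene Psmd11, the activator gene Psme3 and the ubiquitin receptor gene Psmd4 on each of the 24 arrays, by cell state (x axis) and genotype (blue circles WT, orange squares BAF180-deficient), with a bar for the mean of 3 arrays. The WT arrays of Psmb5 rise from 4.35, 4.86 and 5.44 in resting to 7.40, 6.75 and 7.43 in stimulated Naïve cells, Psme3 is low in both resting states, and the resting and stimulated Naïve groups of Psmd4 overlap.

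**Figure D2:**
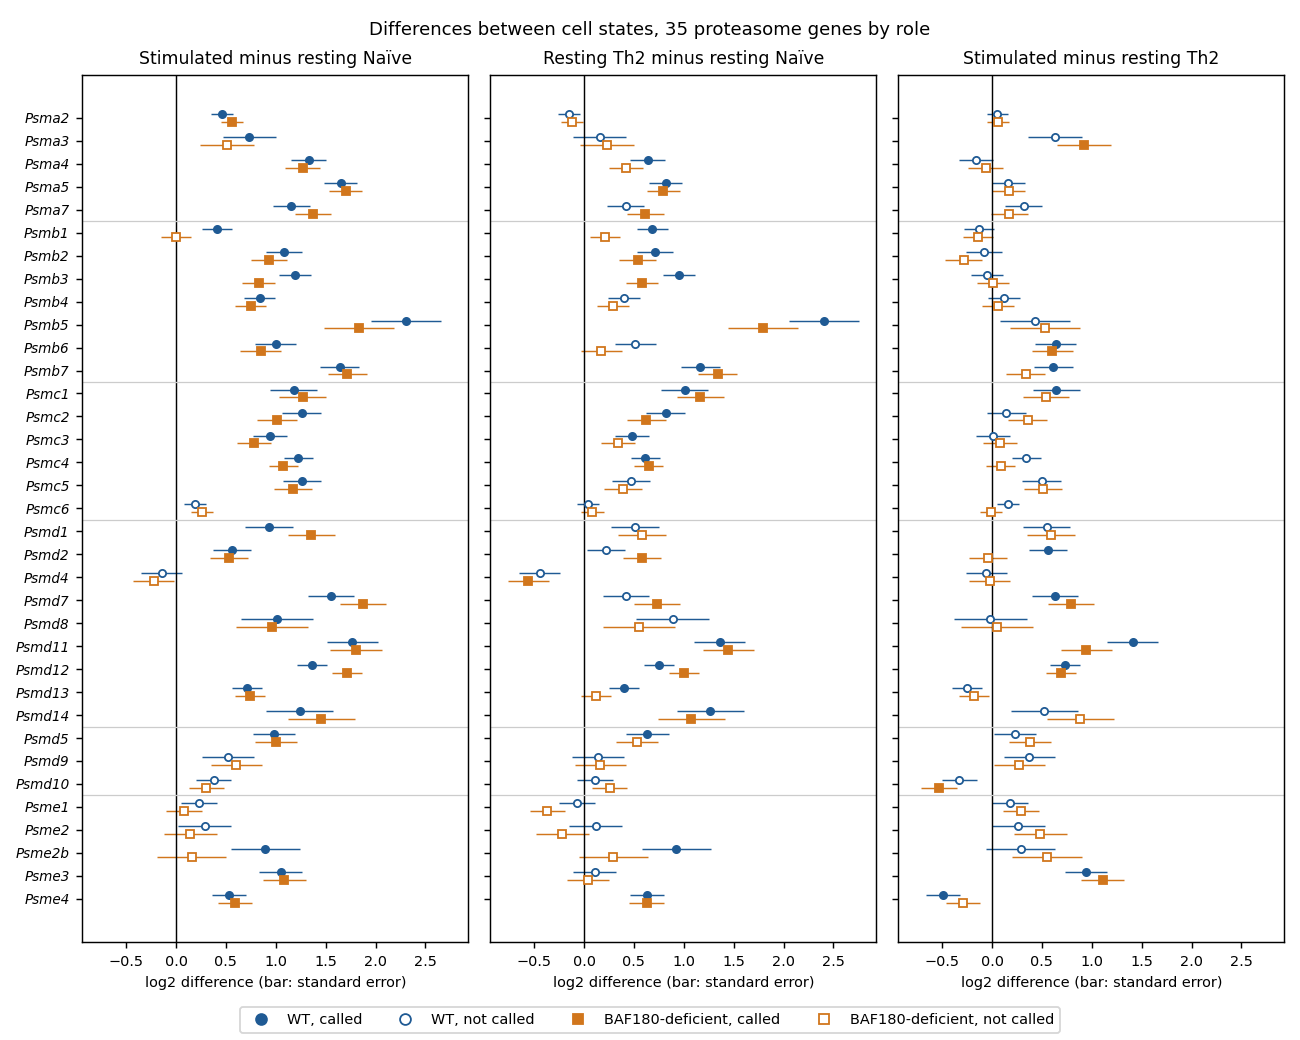
Log2 difference (bars, standard error) of each of the 35 proteasome genes between cell states, in WT and BAF180-deficient cells, with filled symbols for genes at an adjusted p below 0.05 and grey lines between roles. Nearly all genes lie to the right of 0 for stimulated minus resting Naïve cells, with Psmb5 farthest out at 2.31 in WT, and they scatter closer to 0 for stimulated minus resting Th2 cells.

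The genes of the wider pathway were listed by function, and 26 of 31 listed genes were detected, 7 of them under older symbols. All 5 detected genes that help to assemble the core or bind it as an inhibitor rose in stimulated WT Naïve cells. The assembly chaperone genes Psmg1 and Psmg3 differed by 2.09 and 2.01, Psmg2 by 1.42 and the maturation factor Pomp by 1.09. The inhibitor gene Psmf1 differed by 0.66. In BAF180-deficient cells the same 5 genes were called, with a median of 1.21. The immunoproteasome genes did not follow. Psmb10 fell, with a difference of -0.998 ± 0.22 (SE, adjusted p = 7.21e-04), while Psmb9 gave 0.51 ± 0.21 (SE, adjusted p = 0.0563) and Psmb8 -0.20 ± 0.25 (SE, adjusted p = 0.562) and neither was called. When arrays were scaled to a common median instead of quantile-normalized, Psmb10 and Psmb8 turned to 0.13 and 0.59, against a shift of 0.24 in the median of all genes.

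Among genes whose products bind the cap or act on its ubiquitin chains, 4 of 5 rose in stimulated WT Naïve cells, with the deubiquitinase gene Uchl5 at 1.78. Of the 4 shuttle genes that bring ubiquitinated proteins to the proteasome, 3 rose in WT cells, with Rad23b at 1.41. In BAF180-deficient cells 2 of these 5 and 2 of these 4 genes were called, all of them higher. Rps27a, which encodes ubiquitin fused to a ribosomal protein, rose by 2.86 ± 0.23 (SE, adjusted p = 4.91e-09) in WT cells, while the polyubiquitin gene Ubb gave -0.28 and was not called. Of the 4 genes for the transcription factors of proteasome genes and their processing, only Nfe2l1 was called in WT cells, at 0.51 ± 0.17 (SE, adjusted p = 0.0177). In WT cells the unfoldase gene Vcp rose by 0.81 and its cofactor gene Nploc4 gave 0.14 and was not called.

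**Figure D3:**
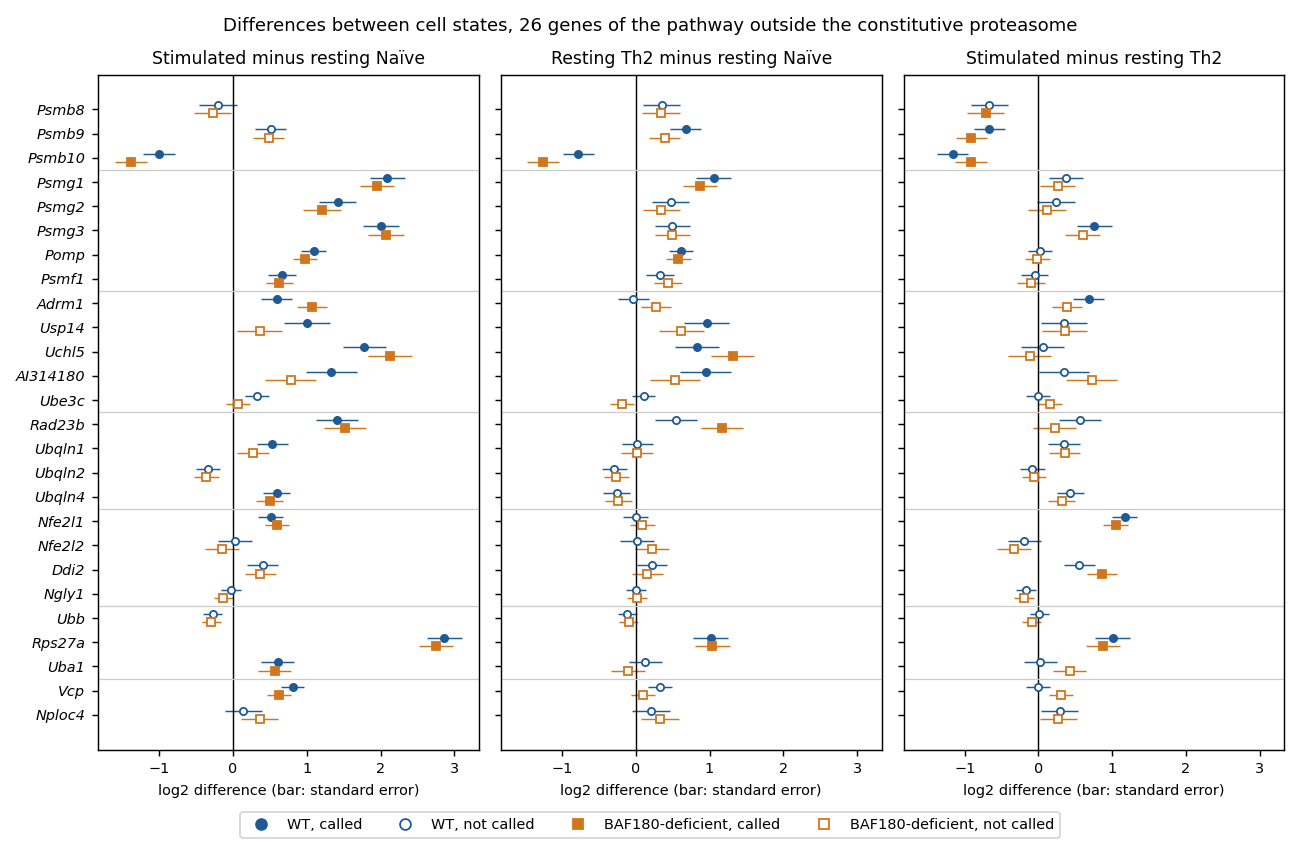
Log2 difference (bars, standard error) between cell states of the 26 detected pathway genes outside the constitutive proteasome, grouped by function and separated by grey lines, in WT and BAF180-deficient cells, with filled symbols for genes at an adjusted p below 0.05. The assembly genes Psmg1, Psmg2, Psmg3, Pomp and Psmf1 lie to the right of 0 in the first panel, whereas Psmb10 lies to the left in all 3.

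Resting Th2 cells also had higher proteasome gene levels than resting Naïve cells, though fewer genes were called. In WT cells 18 of 35 were higher and none lower, beside 17.9% higher and 17.6% lower of all genes, and the median difference was 0.52. In BAF180-deficient cells 15 were higher and 1, Psmd4, was lower, beside 18.2% higher and 17.5% lower of all genes, with a median of 0.53. Without resting Naïve array B or without resting Th2 array C the number called in BAF180-deficient cells went from 16 to 9. This comparison and that of stimulated with resting Naïve cells share the resting Naïve arrays, with their myeloid markers, and are given side by side and not as separate evidence. B cell markers summed to 104 to 508 in resting Th2 cells and cycling markers to 1296 to 2809. Their part in the result was not tested.

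Psmb5 again had the largest difference in WT cells, 2.40 ± 0.35 (SE, adjusted p = 2.01e-05), with values of 7.34, 6.72 and 7.81 in resting Th2 cells, all above the resting Naïve arrays. Psmd11 followed with 6.06, 5.71 and 6.07 and a difference of 1.36 ± 0.26 (SE, adjusted p = 3.51e-04). The deubiquitinase gene Psmd14 measured 6.67, 5.60 and 6.37 in resting Naïve and 7.46, 7.38 and 7.60 in resting Th2 cells, a difference of 1.26 ± 0.33 (SE, adjusted p = 0.00591). Psmb7 measured 9.38, 9.18 and 9.43 and differed by 1.17 ± 0.20 (SE, adjusted p = 9.83e-05). Psmb6, the remaining active-site gene, measured 9.39, 9.71 and 10.08, gave 0.52 ± 0.21 (SE, adjusted p = 0.0579) and was not called, but it was called without resting Naïve array B or without resting Th2 array A, at 0.74 and 0.68. By ring and part, 2 of 5 alpha genes, 5 of 7 beta genes, 4 of 6 ATPase genes and 4 of 9 non-ATPase genes were called in WT cells. At the other end, Psmc6, Psme1 and Psme3 differed by 0.04, -0.07 and 0.11. Their values in WT resting Th2 cells were 4.46, 4.42 and 4.22 for Psmc6, 10.33, 10.27 and 10.35 for Psme1 and 8.04, 8.39 and 8.61 for Psme3, and each overlapped the resting Naïve arrays. Psme3 is thus a gene that was called for stimulated Naïve cells and lay near 0 here. Psmd4 measured 10.58, 10.99 and 10.79 in WT resting Th2 cells and 10.82, 10.59 and 10.77 in those without BAF180. It differed from resting Naïve cells by -0.44 ± 0.21 (SE, adjusted p = 0.103) and -0.56 ± 0.21 (SE, adjusted p = 0.0402). Probes of Psmd7 did not tell the same story, since the brightest gave 0.42 and was not called and the other gave 1.24 and was.

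In the wider pathway, 2 of 5 assembly and inhibitor genes rose in WT resting Th2 cells, Psmg1 by 1.05 and Pomp by 0.61. Psmb9 rose by 0.68 and Psmb10 fell by 0.78, the latter against 0.18 in WT and 0.08 in BAF180-deficient cells when arrays were scaled to a common median. That scaling shifted the median of all genes by 0.32 in WT and 0.55 in BAF180-deficient cells and put the median of the proteasome genes at 1.38 and 1.63.

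After treatment of Th2 cells with PMA and ionomycin for 1.5 hours a smaller set of proteasome genes was called, led by the lid subunit gene Psmd11 and the activator gene Psme3. In WT cells 8 of 35 genes (22.9%) were higher and 1 (2.86%) was lower. Of all genes, 12.6% were higher and 15.9% lower. The median difference of the proteasome genes was 0.26. Scaled to a common median instead of quantile-normalized, only Psmd11 and Psme3 were called in WT and 0 genes in BAF180-deficient cells, where 1 passed at an unadjusted p below 0.05. Applied to the limma results, the 4 criteria of the study's methods called Psmd11 in WT and Psme3 in BAF180-deficient cells. Shares of all genes called under these alternatives are not given here. The genes that rose were Psmb6, Psmb7, Psmc1, Psmd2, Psmd7, Psmd11, Psmd12 and Psme3, and Psme4 fell. These counts rest on few arrays, since between 3 and 9 genes were called when single WT arrays were left out, 3 without resting Th2 array B or stimulated Th2 array A, 4 without stimulated Th2 array C and 5 without stimulated Th2 array B. In BAF180-deficient cells 6 genes were higher (Psma3, Psmb6, Psmd7, Psmd11, Psmd12 and Psme3) and 1 was lower (Psmd10), beside 11.7% higher and 15.3% lower of all genes. These were 17.1% and 2.86% of the 35 proteasome genes. The median there was 0.27 and turned to -0.21 when arrays were scaled to a common median, which moved the median of all genes to -0.19. The count in BAF180-deficient cells was 3 without resting Th2 array A, 4 without resting Th2 array B or stimulated Th2 array A, and 11 without resting Th2 array C. Psmb6, Psmd7, Psmd11, Psmd12 and Psme3 were called in both genotypes. Counting both directions, the share of proteasome genes called was not above that of all genes in either genotype. The share called higher was above that of all genes, and whether by more than random variation was not tested. The 3 detected genes of cycling cells summed to 587 to 1114 in stimulated Th2 cells, against 1296 to 2809 in resting Th2 cells, and 2 of them were called lower in WT cells. Their part in the result was not tested.

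Psmd11 had the largest difference in WT cells and Psme3 in BAF180-deficient cells. The WT values of Psmd11 were 6.06, 5.71 and 6.07 in resting and 7.26, 7.41 and 7.40 in stimulated Th2 cells, and those of BAF180-deficient cells 6.12, 5.95 and 6.32 in resting and 7.28, 6.85 and 7.10 in stimulated cells. The groups did not overlap in either genotype, and the differences were 1.41 ± 0.26 (SE, adjusted p = 2.67e-04) and 0.95 ± 0.26 (SE, adjusted p = 0.00903). Psme3 came next in WT cells, with 8.04, 8.39 and 8.61 in resting and 9.50, 9.08 and 9.28 in stimulated Th2 cells and a difference of 0.94 ± 0.21 (SE, adjusted p = 0.00198). In BAF180-deficient cells it measured 8.29, 8.12 and 8.55 in resting and 9.59, 9.38 and 9.33 in stimulated cells and differed by 1.11 ± 0.21 (SE, adjusted p = 5.19e-04). The lid subunit gene Psmd12 measured 8.32, 8.55 and 8.57 in resting and 8.95, 9.36 and 9.31 in stimulated WT cells, a difference of 0.73 ± 0.15 (SE, adjusted p = 8.65e-04). Every stimulated WT array was above every resting WT array for these 3 genes. They were picked for the size of their differences, and no share of all genes without overlap is given, so this describes these genes only. Among the active-site genes, Psmb6 measured 10.45, 10.24 and 10.40 in stimulated WT Th2 cells and differed by 0.64 ± 0.21 (SE, adjusted p = 0.0244). Psmb7 measured 9.95, 10.12 and 9.76 and differed by 0.61 ± 0.20 (SE, adjusted p = 0.0228). Both calls were near the threshold, that of Psmb6 being lost without resting array A or B or stimulated array A or C and that of Psmb7 without resting array B or stimulated array A or B. Psmb5 measured 8.08, 7.24 and 7.82, gave 0.43 ± 0.35 (SE, adjusted p = 0.45) and was not called.

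The other 26 subunit genes were not called in WT cells. The smallest differences in WT cells were those of Psmc3, Psmd8 and Psmb3, at 0.01, -0.02 and -0.05. Psmc3 measured 8.75, 8.67 and 9.22 in resting and 8.79, 8.91 and 8.97 in stimulated cells, and Psmb3 10.85, 10.79 and 11.11 and 10.81, 11.09 and 10.69. The resting and stimulated arrays overlapped for both. No alpha ring gene was called in WT cells, and Psma3 in BAF180-deficient cells differed by 0.92 ± 0.27 (SE, adjusted p = 0.0143). Psme4 was the WT gene that fell, with 9.52, 9.36 and 9.13 in resting and 8.90, 8.89 and 8.74 in stimulated cells and a difference of -0.50 ± 0.17 (SE, adjusted p = 0.0347). A dimmer Psme4 probe gave 0.09 and was not called. In BAF180-deficient cells that probe gave -0.15 for stimulated minus resting Naïve and -0.04 for resting Th2 minus resting Naïve cells, where the brightest probe was called at 0.59 and 0.63. Psmd10 measured 8.52, 8.72 and 8.30 in resting and 7.91, 7.81 and 8.22 in stimulated BAF180-deficient Th2 cells, a difference of -0.53 ± 0.18 (SE, adjusted p = 0.0307), and gave -0.33 ± 0.18 (SE, adjusted p = 0.2) in WT cells.

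The immunoproteasome genes moved the other way. Psmb10 and Psmb9 fell in WT stimulated Th2 cells, with differences of -1.16 ± 0.22 (SE, adjusted p = 2.95e-04) and -0.67 ± 0.21 (SE, adjusted p = 0.0218), and Psmb8 gave -0.67 ± 0.25 (SE, adjusted p = 0.0582). In BAF180-deficient cells all 3 were called lower, at -0.91, -0.91 and -0.72. Nfe2l1, which encodes a transcription factor of proteasome genes, rose by 1.17 ± 0.17 (SE, adjusted p = 1.95e-05) in WT and by 1.05 ± 0.17 (SE, adjusted p = 7.94e-05) in BAF180-deficient cells. Ddi2, the gene of the protease that processes this factor, gave 0.56 in WT cells and was not called, and 0.86 in BAF180-deficient cells, where it was. Psmg3 rose by 0.76 and Rps27a by 1.01 in WT cells. None of the 4 shuttle genes was called in either genotype.

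Set directly against stimulated Naïve cells, resting Th2 cells had lower levels of part of the proteasome. In WT cells 9 of 35 genes were lower and none was higher, beside 12.1% lower and 11.4% higher of all genes, with a median difference of -0.38. In BAF180-deficient cells 13 were lower and none higher, beside 11% lower and 10.9% higher of all genes, with a median of -0.41. The WT genes were 4 of the 5 alpha genes (all but Psma3), the ATPase genes Psmc4 and Psmc5, the lid genes Psmd7 and Psmd12, and Psme3. No beta ring gene was called in WT cells. Psmd7 fell most, with stimulated Naïve values of 10.03, 9.80 and 10.00 and resting Th2 values of 9.11, 8.67 and 8.63, a difference of -1.14 ± 0.23 (SE, adjusted p = 9.70e-04). Psme3 gave -0.94 ± 0.21 (SE, adjusted p = 0.00262) and Psma5 -0.83 ± 0.17 (SE, adjusted p = 9.28e-04), and for all 3 genes the groups did not overlap. These genes too were picked for the size of their differences, so the lack of overlap describes them only. Psmb5, Psmd14 and Psme2b lay near 0, at 0.10, 0.03 and 0.03. In stimulated Naïve cells Psmd14 measured 6.82, 7.99 and 7.54, around its resting Th2 values. Of the assembly and inhibitor genes 4 of 5 were lower in WT resting Th2 cells. Under scaling to a common median 1 proteasome gene was called in WT and 0 in BAF180-deficient cells.

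Over the 4 states, the mean level was lowest in resting Naïve cells for 31 of 35 genes in WT and for 28 in BAF180-deficient cells. In WT cells the exceptions were Psma2 and Psme1, lowest in resting Th2 cells, and Psmd4 and Psmd10, lowest in stimulated Th2 cells. The highest mean was found in stimulated Naïve cells for 19 genes in WT and 23 in BAF180-deficient cells, and in stimulated Th2 cells for 13 and 8. These orders are of means, and many neighbours in them did not differ beyond their spread. Psmc6, Psmd1, Psmd2 and Psmd9 count as lowest in resting Naïve cells in both genotypes, where no array detected them. No share of all genes is given beside these counts, so they describe these genes only.

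No proteasome gene was called between BAF180-deficient and WT cells in any state by the limma test. Background rates were low, at 0.104% of all genes in resting Naïve, 0.0284% in stimulated Naïve, 0.0379% in resting Th2 and 0.0284% in stimulated Th2 cells. At an unadjusted p below 0.05, 3 of the 35 genes passed in resting Naïve cells (Psmb1, Psmb3 and Psmb5). In stimulated Naïve cells 0 passed, in resting Th2 cells 0 and in stimulated Th2 cells 1 (Psmd2). The background rates above are for adjusted p. No share of all genes at the unadjusted threshold is given, so these counts are not read as an excess. The lowest adjusted p in resting Naïve cells was 0.366. Median differences over the 35 genes, KO minus WT, were 0.07, 0.05, -0.01 and -0.01 in the 4 states in that order. Scaled to a common median, they were 0.50 in resting Th2 and -0.32 in stimulated Th2 cells, where the median of all genes moved to 0.23 and -0.16, and no proteasome gene was called. A p above the threshold does not show that the genotypes had equal levels, so the intervals are given as well. The 95% interval of the difference lay within 1 log2 unit of 0 for 34 of 35 genes in resting Naïve, 33 in stimulated Naïve, 33 in resting Th2 and 34 in stimulated Th2 cells. Psmc6, Psmd1, Psmd2 and Psmd9 are among the 34 in resting Naïve cells, though no array of either genotype detected them there. The same holds for Psmc6 in resting and in stimulated Th2 cells. Intervals of such probes describe background and do not bound a difference.

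**Figure D4:**
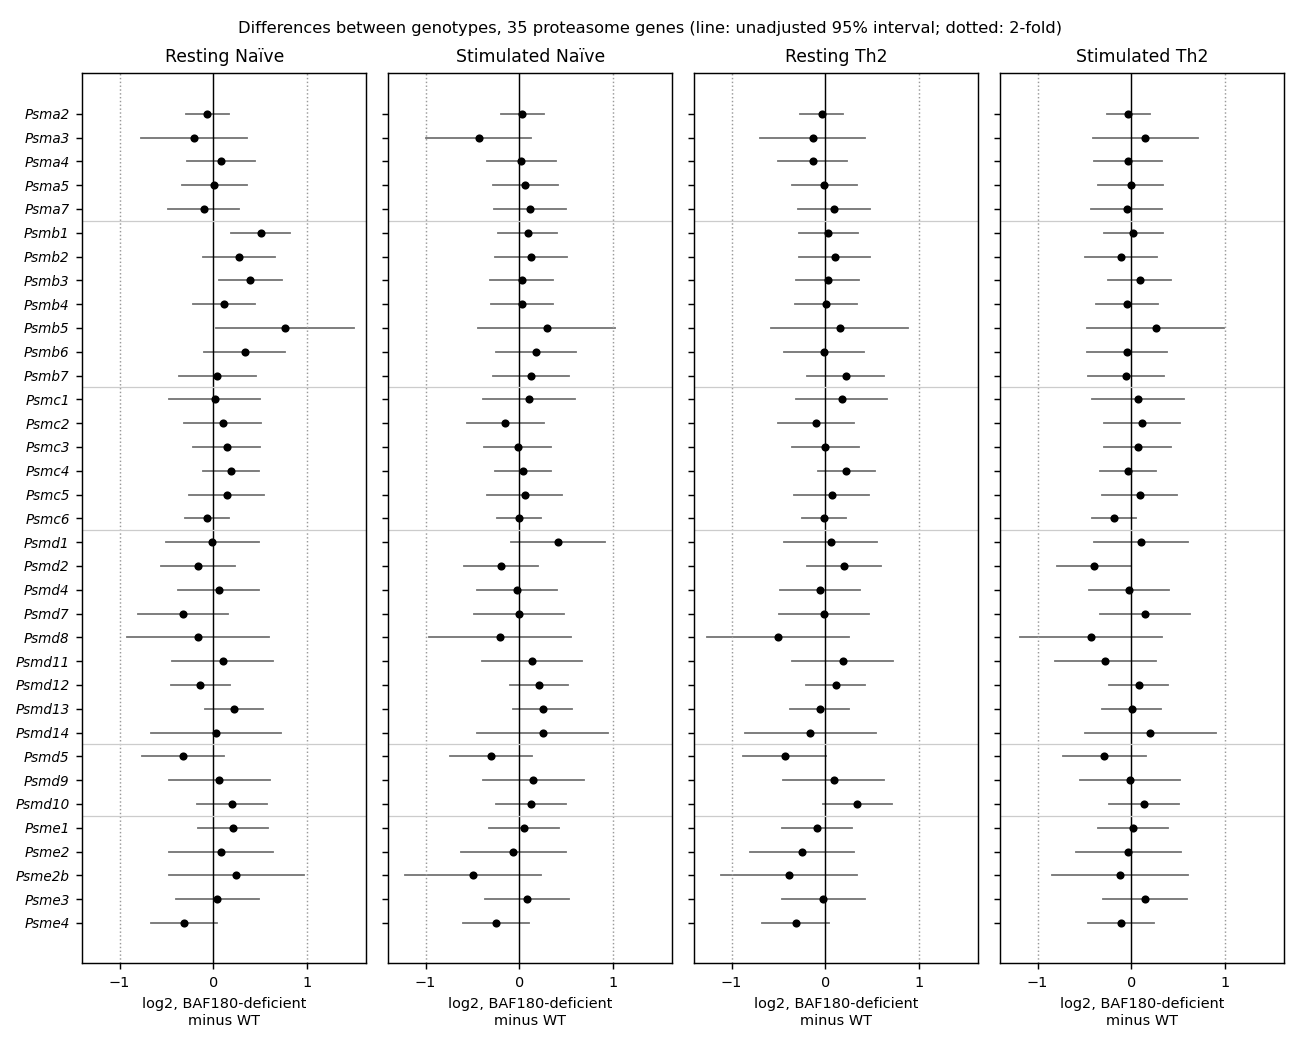
Log2 difference, KO minus WT, of the 35 proteasome genes in each cell state, with lines for unadjusted 95% intervals and dotted lines at 1 log2 unit, a factor of 2. The intervals include 0 for all genes but Psmb1, Psmb3 and Psmb5 in resting Naïve cells and Psmd2 in stimulated Th2 cells, and those that reach beyond 1 log2 unit belong to Psmb5, Psme2b and Psmd8.

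The largest genotype difference was that of Psmb5 in resting Naïve cells, and it moved with single arrays, from 0.50 without WT array A to 1.04 without WT array C. The WT arrays A, B and C measured 4.35, 4.86 and 5.44 and the BAF180-deficient arrays 5.20, 5.78 and 5.96. The groups overlapped, and the difference was 0.76 ± 0.35 (SE, adjusted p = 0.704), with an interval of 0.03 to 1.49. Psmb5 was detected on 1 of 3 WT and 3 of 3 BAF180-deficient arrays there. Psmb1 measured 9.15, 9.74 and 9.21 in WT and 9.93, 9.68 and 9.99 in BAF180-deficient resting Naïve cells, an overlapping pair of groups with a difference of 0.50 ± 0.15 (SE, adjusted p = 0.366). Psmb3 measured 9.68, 10.25 and 9.98 in WT and 10.39, 10.29 and 10.41 in BAF180-deficient cells, which did not overlap, a difference of 0.40 ± 0.16 (SE, adjusted p = 0.651), or 0.25 without WT array A. All 3 are beta ring genes, of which Psmb5 carries an active site and the others do not. That they share a ring was seen afterwards and has no test.

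In stimulated Naïve cells the genes with the largest differences were Psme2b, Psma3 and Psmd1, at -0.49, -0.43 and 0.41. Psme2b rested on array A, since the BAF180-deficient values were 5.59, 7.35 and 6.97 against 6.84, 7.51 and 7.03 in WT, and without BAF180-deficient array A its difference was 0.03. Psma3 measured 11.03, 11.67 and 11.65 in WT and 10.49, 11.19 and 11.36 in BAF180-deficient cells, and its difference was -0.17 without BAF180-deficient array A. Psmd1 measured 4.82, 5.22 and 5.62 in WT and 5.27, 5.86 and 5.77 in BAF180-deficient cells, and its difference was 0.21 without WT array A. The genotypes overlapped for all 3 genes.

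In resting Th2 cells the largest genotype differences were those of Psmd8, Psmd5 and Psme2b, at -0.50, -0.43 and -0.38. Each rested in part on 1 array. Psmd8 was at -0.08 without BAF180-deficient array B, Psmd5 at -0.24 without BAF180-deficient array C and Psme2b at -0.22 without WT array B. Psmd5 measured 6.02, 6.18 and 5.74 in WT and 5.77, 5.71 and 5.15 in BAF180-deficient cells, and Psme2b 7.24, 7.48 and 6.76 and 6.73, 6.67 and 6.92. In stimulated Th2 cells Psmd8, Psmd2 and Psmd5 differed by -0.43, -0.40 and -0.29. Here Psmd8 was at -0.08 without BAF180-deficient array B, and Psmd2 and Psmd5 were at -0.23 and -0.13 without BAF180-deficient array A. Psmd2 in stimulated Th2 cells measured 5.13, 5.30 and 5.11 in WT and 4.43, 4.90 and 5.01 in BAF180-deficient cells. These groups did not overlap, and both lay close to background. Psmd5 measured 6.11, 6.27 and 6.26 in WT and 5.61, 6.38 and 5.78 in BAF180-deficient cells, which overlapped.

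Psmd8, a lid subunit gene, was low on array B of the BAF180-deficient cells. The BAF180-deficient values of arrays A, B and C were 8.77, 7.46 and 8.85 in resting Naïve, 9.40, 8.91 and 9.67 in stimulated Naïve, 9.26, 8.07 and 9.41 in resting Th2 and 9.09, 8.26 and 9.54 in stimulated Th2 cells. Array B was the lowest in each of the 4 states. In WT cells it was not, with 8.16, 8.77 and 8.65 in resting Naïve, 9.35, 9.52 and 9.74 in stimulated Naïve, 9.41, 9.44 and 9.40 in resting Th2 and 9.14, 9.58 and 9.47 in stimulated Th2 cells. This pattern was chosen after its values were seen and has no test.

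The change between states did not differ detectably between genotypes for any of the 35 genes. None was called for the difference in response of Naïve cells to stimulation, of Th2 cells to stimulation, or between resting Th2 and resting Naïve cells, beside 0.00948%, 0% and 0.00948% of all genes. At an unadjusted p below 0.05 these tests gave 0, 1 (Psmd2) and 1 (Psmb1) of the 35 genes, again with no share of all genes beside them. The 95% intervals of these differences lay within 1 log2 unit of 0 for 29, 27 and 30 genes, so larger differences remain possible for the others, among them Psmb5, Psmd8 and Psme2b. Probes near background, such as that of Psmc6, are among those within, and their intervals do not bound a difference. In the lists of the wider pathway no gene was called between genotypes in any state.

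Psmc3ip, the gene that the symbol rule picked up although it encodes no subunit, differed more than any proteasome gene between stimulated and resting WT Naïve cells. It measured 4.64, 5.46 and 5.65 in resting and 8.35, 8.21 and 8.65 in stimulated WT Naïve cells, a difference of 3.16 ± 0.35 (SE, adjusted p = 3.06e-07), and it was kept out of all counts above.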

How the data were processed

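RNA of 24 samples was hybridised to Illumina MouseRef-8 arrays. Per the labels, the authors read the scans in GenomeStudio 1.6.0. The deposited table holds 1 intensity per probe and array, not normalized, and 1 detection p-value per probe and array. The members, the pathway lists and the marker lists were chosen with earlier results of these data known. A pair of genes of the pathway lists is not reported here.

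Intensities were background-corrected from the detection p-values and quantile-normalized with neqc in limma 3.58.1 under R 4.3.3, with an offset of 16. Analysed probes had a detection p-value no higher than 0.02 on 1 array or more. A fit of 8 group means with lmFit and eBayes over all 24 arrays had 16 residual degrees of freedom, and 15 contrasts were tested with Benjamini-Hochberg adjustment over 14246 probes at 0.05. A gene was represented by its brightest kept probe. Overlap between groups and unadjusted p-values were counted for the proteasome genes, without a share over all genes beside them. Where no probe of a gene was detected on any array of a group, the fold is a lower bound against the lowest detected signal. Of 11 related or control genes listed under older symbols, names came from RefSeq. The number of arrays limits the precision, at a median standard error of 0.19 log2 units. The fit was tested on simulated data with independent noise on each array, which does not cover links between arrays of a letter.

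All subunit genes are accounted for by role. Values by array are given for Psmb5, Psmb6 and Psmb7, the 3 largest and 3 smallest differences in each WT state comparison and the 3 largest genotype differences in each state, and genes whose call or sign differs between probes are named; other genes named with values were chosen after these were seen. Replicates correlated at 0.949 to 0.989 within groups. No 2 arrays of the same group held the same values, with at most 0.973% of probes equal. Arrays of different groups were not compared in this way. Alternatives were another normalization, scaling, filter or probe rule, the 4 criteria of the study's methods, a block for replicate letters and leaving out each array. The 4 criteria used limma differences, p-values and adjusted p-values in place of the study's own, and the criterion on signal excluded no probe.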

Additional observations from a re-analysis of the deposited data

How the results depend on the processing

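The direction of the state differences held for the proteasome genes as a group under every alternative but 1, while counts near the threshold moved. Applied to the limma results, the 4 criteria of the study's methods called 5, 3, 1 and 2 of 35 genes in WT cells. They called 7, 3, 1 and 3 in BAF180-deficient cells. In each, the order is stimulated minus resting Naïve, resting Th2 minus resting Naïve, stimulated minus resting Th2 and resting Th2 minus stimulated Naïve cells. Scaling to a common median without the quantile step called 2 for stimulated minus resting Th2 and 1 for resting Th2 minus stimulated Naïve cells in WT, and 31, 0 and 0 in BAF180-deficient cells for resting Th2 minus resting Naïve, stimulated minus resting Th2 and resting Th2 minus stimulated Naïve cells. It turned the median for stimulated minus resting Th2 in BAF180-deficient cells to -0.21. Without the detection filter 5 genes were called for stimulated minus resting Th2 in WT. No alternative called a genotype difference or an interaction. Shares of all genes called under the alternatives, the block fits among them, are not given here. The counts thus show how calls moved and not an excess over all genes.

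When single arrays were left out, the number called ranged from 3 to 9 for stimulated minus resting Th2 in WT, from 3 to 11 for the same in BAF180-deficient cells, and from 9 to 16 for resting Th2 minus resting Naïve in BAF180-deficient cells. In WT it was 24 to 28 for stimulated minus resting Naïve, 14 to 20 for resting Th2 minus resting Naïve and 9 to 12 for resting Th2 minus stimulated Naïve cells.

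Genes near 0 changed sign. Psmc6 gave -0.011 (stimulated minus resting Naïve) and -0.13 (resting Th2 minus resting Naïve) on Z-scores. Under median scaling Psmd4 gave 0.95 for stimulated minus resting Naïve, Psme1 0.90 for resting Th2 minus resting Naïve, Psmb3 0.33 and Psmd8 0.29 for stimulated minus resting Th2, and Psmd14 -0.036 and Psme2b -0.015 for resting Th2 minus stimulated Naïve cells. For KO minus WT in resting Th2 it gave 0.027 for Psmd8 and 0.055 for Psme2b. Psme1 gave 0.060 as the mean of its probes. With single arrays left out, resting Th2 minus resting Naïve ran from -0.010 to 0.11 for Psmc6, -0.22 to 0.00597 for Psme1 and -0.11 to 0.33 for Psme3. Stimulated minus resting Th2 ran from -0.17 to 0.043 for Psmb3, -0.092 to 0.18 for Psmc3 and -0.11 to 0.11 for Psmd8. Resting Th2 minus stimulated Naïve ran from -0.17 to 0.38 for Psmb5, -0.29 to 0.30 for Psmd14 and -0.13 to 0.23 for Psme2b. KO minus WT of Psme2b in stimulated Naïve ran from -0.85 to 0.031. Stimulated minus resting Naïve of Psme2b, recomputed in the same way after the data were seen, ran from -0.20 to 0.68 in BAF180-deficient cells and from 0.56 to 1.16 in WT. Under median scaling, an alternative added for these genes after the data were seen, Psmb8 gave 0.59 in WT and 0.55 in BAF180-deficient cells and Psmb10 0.13 in WT for stimulated minus resting Naïve, and Psmb10 gave 0.18 and 0.079 for resting Th2 minus resting Naïve cells. The cause of these changes was not tested.

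WT and KO mice were used in pairs by the study's account, but no source ties the letters A, B and C to them. WT and KO arrays of the same letter deviated from their group means with correlations of 0.30 (A), 0.14 (B) and 0.52 (C) over the 4 states together, and of -0.0026 to 0.66 within states, where 2 of 12 were at or below 0.1. Arrays of the same letter and genotype from resting and stimulated Th2 cells correlated at 0.35, 0.29 and 0.43 in KO. In WT these values were 0.023, 0.38 and 0.38. Between resting and stimulated Naïve cells they lay from -0.0092 to 0.17. Arrays of a letter may thus be linked, which was not tested. For want of a label the results above take the arrays as independent, and fits with a block are given next. With a replicate block by letter, the number called was 30, 19, 9 and 9 in WT and 27, 19, 10 and 13 in BAF180-deficient cells for stimulated minus resting Naïve, resting Th2 minus resting Naïve, stimulated minus resting Th2 and resting Th2 minus stimulated Naïve cells. With a block by genotype and letter it was 30, 18, 9 and 9, and 27, 20, 8 and 12. No count moved by more than a factor of 1.5, and no genotype difference or interaction was called. The 3 arrays per group limit dim probes such as those of Psmc6, Psmd1, Psmd2 and Psmd9, and probes with a wide spread such as those of Psmb5, Psmd8 and Psme2b.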
